A study of Mus musculus with 17 samples.

Results

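The mitochondrial ribosomal protein genes were followed through polyA RNA-seq of 2 kinds of mouse macrophage. They were taken as all protein-coding gene models whose symbol begins with Mrpl or Mrps followed by a digit, which gave 77 of the 24453 models in the table (20683 of them protein-coding). Immortalised bone marrow-derived macrophages (iBMDMs) are a C57Bl/6EiJ line transformed by retrovirus with BRAF(V600E) and Myc that carries Cas9. All 8 iBMDM libraries are labelled as vehicle treated, with 2 per group. The knockout cells were infected with lentivirus carrying 2 guides against 1 gene, which was Jun in JunKO, Jund in JunDKO and Atf3 in Atf3KO, and sorted for a fluorescent protein of the vector, with no single clone named. The control libraries carry the genotype label of a scramble control (Scramble here) and the word zsGreen in their titles. Thioglycollate-elicited macrophages (TGEMs) are primary cells flushed from the peritoneum of male 8-week-old mice 3 days after the injection. Some were left with vehicle and others exposed for 1 h to KLA (Kdo2 lipid A), which stimulates TLR4. The C57Bl/6EiJ strain gave 1 vehicle and 1 KLA library and the Balb/cJ strain 1 vehicle and 2 KLA libraries. The methods speak of replicate experiments for the knockouts but do not say whether libraries of a group came from separate cultures or animals, so p-values measure the spread between these libraries, which may be technical.

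Mitochondria keep their own ribosome, which translates the few membrane proteins of the respiratory chain that mitochondrial DNA still encodes. Its RNAs come from mitochondrial DNA, but all of its proteins are encoded in the nucleus, made in the cytosol and imported. Many descend from the ribosome of the bacterial ancestor and keep its numbering, and others were added during the evolution of mitochondria. The nuclear factors NRF1 and GABP, a member of the ETS family, and the coactivators related to PGC-1 are known for driving genes of this kind.

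The library depth recovered from the steps of the RPKM values (reads per kilobase of exon, scaled to library depth) ran from 1553296 to 18444441 reads. The member genes took 0.232% to 0.303% of exonic reads in iBMDMs and 0.115% to 0.158% in TGEMs. Guides make small insertions or deletions, which need not lower the mRNA, and Atf3 and Jun mRNA were higher, not lower, in the libraries labelled with their loss. Atf3 stood at 80.7 and 77.4 RPKM in Scramble and at 154 and 169 in libraries with the Atf3KO label, and Jun at 17.6 and 18.5 against 26.2 and 20.5 under the JunKO label. Jund stood at 9.19 and 8.33 RPKM in Scramble and at 6.94 and 6.07 under the JunDKO label. In the libraries labelled Atf3KO, Jun stood at 17.9 and 46.2 RPKM and Jund at 22.6 and 83.0. The study checked the knockouts by western blot, a measure of protein that was not analysed here. Atf3KO, JunKO and JunDKO below name libraries by their labels. The libraries labelled Atf3KO stood apart from the other 6: they held reads of 10425 and 10631 gene models, at 4397164 and 7236839 reads, against 11884 to 12533 models in the others. Across all tested models the fitted difference between them and Scramble rose with GC content (Spearman's rho 0.50 over 10617 models in the same libraries, a description). Summed levels of 9 macrophage markers were 17040 to 33226 RPKM in iBMDMs and 8059 to 11029 in TGEMs.

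The members are short genes. Their exons summed to a median of 1044 bases (403 to 6707) against 2326 for all protein-coding models. Their median GC content was 51.5% (39.9% to 60.6%) against 49.5% for protein-coding models. Of the 77 members, 50 encode proteins of the large subunit and 26 of the small subunit, and Mrps36 is known today as a part of the 2-oxoglutarate dehydrogenase complex rather than of the ribosome. Symbols do not always give the subunit, since Mrps18a and Mrps30 are large-subunit proteins. A start within 1000 bases of the start of a divergently transcribed protein-coding gene was found for 24 members (31.2%), and for 7.4% of the 20606 other protein-coding models. Mrpl46 and Mrps11 form such a pair with each other, 42 bases apart.

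Short motifs were counted on both strands of the 250 bases before the RefSeq start (GRCm38.p6) for the 65 members with a RefSeq start within 500 bases of the model's. GCGCANGCG, a core of the NRF1 site, was present before 12 of them (18.5%, against 7.8% of 15072 other promoters), and CCGGAAG, the ETS core that GABP binds, before 16 (24.6% against 9.8%). The YY1 core AAGATGGCG was found in 2 (3.1% against 0.8%), the SP box GGGCGG in 33 (50.8% against 45.3%) and the NF-Y box CCAAT in 25 (38.5% against 35.8%). The AP-1 site TGANTCA was present in 3 (4.6% against 6.2%), the related CRE TGACGTCA in 2 (3.1% against 2.1%), and the E-box CACGTG in 4 (6.2% against 6.9%). Median GC content was 58.4% in the member promoters and 56.4% in the others. Matches are descriptions of these windows and not sites of binding.

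The 250 bases before 5 members are shown 5′ to 3′ on the strand of the gene, with every match to these motifs in capitals. They belong to the member with the highest level (Mrpl12), the members with no read in the libraries labelled Atf3KO (Mrpl1 and Mrpl35) and the members with the largest fitted rises there (Mrps12 and Mrpl55). They were chosen after those values were seen. They lie at chr11:120484387-120484636 (Mrpl12, plus strand), chr5:96209865-96210114 (Mrpl1, plus strand), chr6:71823785-71824034 (Mrpl35, minus strand), chr7:28741822-28742071 (Mrps12, minus strand) and chr11:59202236-59202485 (Mrpl55, plus strand).
Mrpl12: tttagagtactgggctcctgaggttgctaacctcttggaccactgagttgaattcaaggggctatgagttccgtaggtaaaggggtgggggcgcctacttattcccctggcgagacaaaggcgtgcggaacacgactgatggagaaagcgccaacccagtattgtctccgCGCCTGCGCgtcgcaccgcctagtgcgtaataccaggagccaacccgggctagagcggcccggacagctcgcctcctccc
Mrpl1: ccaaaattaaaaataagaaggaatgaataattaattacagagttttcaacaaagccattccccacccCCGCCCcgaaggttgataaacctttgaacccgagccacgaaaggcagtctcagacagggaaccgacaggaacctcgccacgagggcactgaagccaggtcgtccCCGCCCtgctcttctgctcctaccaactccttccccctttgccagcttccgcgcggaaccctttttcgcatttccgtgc
Mrpl35: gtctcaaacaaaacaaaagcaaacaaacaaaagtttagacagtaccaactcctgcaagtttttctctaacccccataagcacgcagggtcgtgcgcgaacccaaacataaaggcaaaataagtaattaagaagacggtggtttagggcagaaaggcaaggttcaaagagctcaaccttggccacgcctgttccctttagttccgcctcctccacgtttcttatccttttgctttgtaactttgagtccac
Mrps12: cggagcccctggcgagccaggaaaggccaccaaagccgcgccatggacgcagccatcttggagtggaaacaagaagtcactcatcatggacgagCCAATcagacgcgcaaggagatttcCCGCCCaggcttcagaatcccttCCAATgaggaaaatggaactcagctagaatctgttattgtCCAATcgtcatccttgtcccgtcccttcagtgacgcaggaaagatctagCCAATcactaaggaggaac
Mrpl55: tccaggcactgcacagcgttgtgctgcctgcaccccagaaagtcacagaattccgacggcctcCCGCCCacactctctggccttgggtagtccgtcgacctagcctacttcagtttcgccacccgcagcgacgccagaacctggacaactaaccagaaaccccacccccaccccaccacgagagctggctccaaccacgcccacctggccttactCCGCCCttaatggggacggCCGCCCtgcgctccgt
Mrpl12 has 1 NRF1 match, Mrpl1 has 2 SP matches and Mrpl55 has 3, and Mrpl35 has no match to any of the 8 motifs. Mrps12 has 4 NF-Y matches and 1 SP match. It faces Sars2, the mitochondrial seryl-tRNA synthetase, whose model start is 187 bases from that of Mrps12. The Sars2 start lies within the Mrps12 window, which is counted from a RefSeq start 40 bases from the model start. None of these 5 windows holds an AP-1 or CRE match.

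Levels differed widely among genes whose proteins enter the same particle. The median of the members' mean levels over the 13 libraries was 17.5 RPKM. The highest means were those of Mrpl12 (70.4 RPKM), a stalk protein that also binds the mitochondrial RNA polymerase, Mrpl33 (66.1), Mrpl20 (63.8), Mrpl52 (54.1) and Mrpl30 (45.2). Mrpl12 ran at 74.8 and 74.4 RPKM with the scramble control, at 114 and 152 in the Atf3KO libraries, at 87.2 and 92.3 in JunKO, at 97.7 and 86.3 in JunDKO, and at 16.9 to 40.3 RPKM over the 5 TGEM libraries. Its libraries of the 2 cell kinds did not overlap.

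At the low end were Mrpl57 (5.56 RPKM), Mrpl35 (4.71), Mrps33 (2.49), Mrps36 (0.397) and Mrpl23 (0.085). Mrpl23, the homologue of a protein at the exit of the bacterial peptide tunnel, measured 0.901 RPKM in the first Scramble library and 0.202 in the first Balb/cJ KLA library and was listed at 0 in the other 11. Mrps36 was listed at 0 in 7 libraries and at most at 1.47 RPKM in the others. These 2 were the members whose mean missed the limit of 1 RPKM in every fit, so 75 members were tested. They were also the members with the most repeated sequence: 75.0% of the 31-base stretches in the exons of Mrpl23 and 88.0% of those of Mrps36 occur more than once in the genome, so their levels, which depend on how the authors' counting treated such reads, are uncertain. Over 10% of the stretches were repeated in 28 members in all, among them Mrps18b (63.4%), Mrps21 (57.6%), Mrps5 (56.1%), Mrpl22 (53.5%), Mrps18c (30.4%) and Mrpl12 (24.3%).

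The plot of summed levels shows the size of the whole set in each library. The summed RPKM of the 77 genes was 1709 and 1686 for Scramble, 2005 and 2351 for Atf3KO, 1891 and 1750 for JunKO, and 2063 and 2045 for JunDKO. In TGEMs it was 1288 with vehicle and 927 with KLA in C57Bl/6EiJ, and 1123 with vehicle and 936 and 981 with KLA in Balb/cJ. Every TGEM library lay below every iBMDM library, and every KLA library below both vehicle libraries. The large-subunit genes summed to 2.11 to 2.67 times the small-subunit genes.

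**Figure D1:**
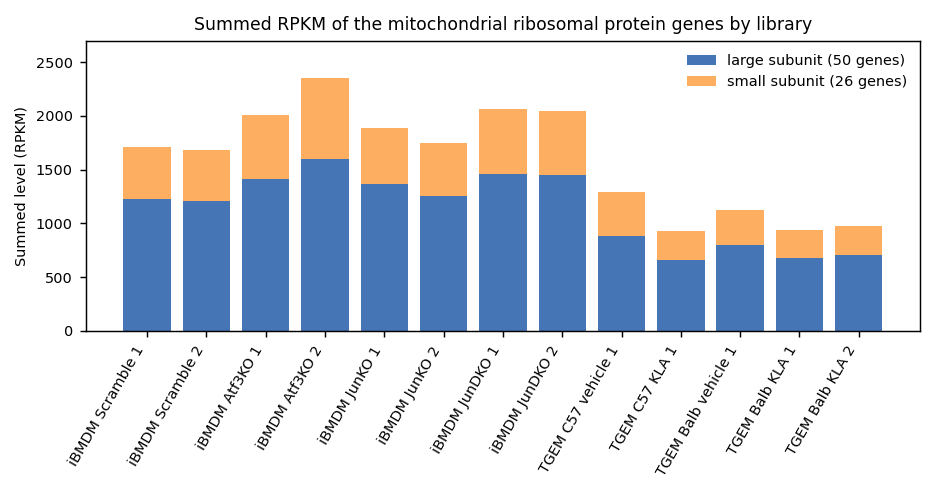
Summed level (RPKM) of the member genes in each of the 13 libraries, stacked by the 50 large-subunit and 26 small-subunit genes; Mrps36 is left out. The 8 iBMDM bars reach 1686 to 2351 RPKM and the 5 TGEM bars 927 to 1288.

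The first comparison set the libraries labelled as knockouts of Atf3, which encodes a bZIP transcription factor that can pair with Jun proteins, against Scramble. In the libraries labelled Atf3KO members moved in both directions. Of 75 members, 34 passed an adjusted p of 0.05 (limma-trend), with 21 higher and 13 lower than Scramble. This was 45.3% of the members, near the 41.2% of all tested models that passed (20.7% higher, 20.6% lower). Both Atf3KO libraries lay above both Scramble libraries for 31 members (37.4% of all models) and below them for 22 (33.4%). The members' median fitted difference in log2(RPKM + 1) was 0.165 and that of all models 0.052. With library medians made equal the split was 17 higher and 16 lower, and the members' median 0.039 against -0.045 for all models. A further limit of a 2-fold change and 16 RPKM in either group left 21 members, where it left 12.5% of all models.

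Mrpl1 and Mrpl35 were the extremes of the fall. Mrpl1, the homologue of the protein that forms the L1 stalk (chr5:96210115-96239684, plus strand, 7 exons), gave 7.59 and 10.0 RPKM for Scramble, 7.47 and 7.80 for JunKO and 9.84 and 13.2 for JunDKO, and was listed at 0 in both Atf3KO libraries. Mrpl35 (chr6:71812997-71823784, minus strand, 4 exons) gave 7.44 and 7.60 RPKM for Scramble, 7.63 and 7.91 for JunKO and 7.50 and 8.89 for JunDKO, and 0 in both Atf3KO libraries. Scramble held 50 reads of Mrpl1 and 101 of Mrpl35, and at the same level the more deeply sequenced Atf3KO libraries would have held 160 and 323. Taking 3 reads over the Atf3KO group as the limit, Mrpl1 was at least 53.2-fold lower and Mrpl35 at least 107.6-fold lower than in Scramble. This limit covers counting error in Atf3KO only, and the Scramble reads were taken as exact. The fitted differences in log2(RPKM + 1) were -3.28 ± 0.24 and -3.09 ± 0.22 (limma-trend, adjusted p = 0.000176 and 0.000141).

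Such zeros were not limited to these genes. Of 6505 models with at least 5 RPKM in all 6 other iBMDM libraries, 37 were at 0 in both Atf3KO libraries. Among the 6505 were 73 members, of which 2 were at 0. The same count gave 0 of 5996 models at 0 in Scramble, 1 of 5947 in JunKO and 2 of 5952 in JunDKO. The 37 models had a median length of 759 bases and a median GC content of 43.8%, against 2670 bases and 49.5% over the 6505. The nearest models with 5 RPKM on either side of Mrpl1 and Mrpl35 kept reads: Cnot6l measured 3.78 and 1.60 RPKM in Atf3KO against 7.82 and 12.2 in Scramble, Anxa3 98.6 and 83.9 against 121 and 131, Kdm3a 5.45 and 5.84 against 16.4 and 16.3, and Immt 62.7 and 52.0 against 75.5 and 70.1. The part of GC content or length in the zeros was not tested.

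Other members fell without reaching zero. Mrps31, a small-subunit protein added in mitochondria, measured 10.2 and 11.9 RPKM in Scramble and 0.745 and 0.633 in Atf3KO, a difference of -2.83 ± 0.32 (SE, adjusted p = 0.000805). Mrpl24, a large-subunit protein with a bacterial homologue, measured 45.7 and 50.3 RPKM in Scramble and 7.98 and 7.34 in Atf3KO (-2.50 ± 0.19, adjusted p = 0.000175). These values lay outside the range of the other 6 iBMDM libraries, where Mrpl24 ran from 45.7 to 78.7 RPKM and Mrps31 from 6.91 to 13.6. Of the exonic bases of Mrpl24, 37.4% overlap Rrnad1 on the opposite strand, and whether strand was used in counting is not given in the sources used here. Rrnad1 measured 10.8 and 11.5 RPKM in Scramble and 6.65 and 8.28 in Atf3KO.

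Of the 3 members named for protein S18, 1 passed. Mrps18c, the one counted here as the bacterial homologue and a small-subunit protein, measured 36.7 and 50.9 RPKM in Scramble and 8.29 and 9.51 in Atf3KO (-2.16 ± 0.26, adjusted p = 0.00105). Mrps18b measured 11.9 and 17.9 RPKM against 7.62 and 12.2 (-0.55 ± 0.29, adjusted p = 0.151), and Mrps18a, the large-subunit form, 44.8 and 35.5 against 31.6 and 29.5 (-0.37 ± 0.20, adjusted p = 0.171). Mrps18a and Mrps18b each gained a pass in 2 of 20 alternatives, over which the values ran from -0.84 to -0.21 and from -0.86 to -0.25. The difference between the 3 changes was not tested. Of the other small-subunit genes, Mrps15 fell from 38.5 and 42.2 RPKM to 11.0 and 18.9 (-1.42 ± 0.29, adjusted p = 0.00735), a pass lost in 1 of 20 alternatives (-1.35, adjusted p = 0.056 without the second Scramble library). Mrps7 measured 33.4 and 27.9 RPKM against 31.8 and 41.0 (0.23 ± 0.21, adjusted p = 0.396) with overlapping libraries.

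Mrps12 led the rises. It encodes the homologue of the bacterial decoding-site protein S12 (chr7:28739641-28741781, minus strand, 3 exons) and measured 13.7 and 10.3 RPKM in Scramble and 38.2 and 91.8 in Atf3KO, a difference of 2.22 ± 0.41 (adjusted p = 0.00481). The Atf3KO libraries were far from each other, and both lay above every other iBMDM library, the highest of which held 21.8 RPKM. Sars2, whose start lies within the Mrps12 window shown above, measured 2.74 and 1.24 RPKM in Scramble and 7.33 and 15.8 in Atf3KO (2.04 ± 0.43, adjusted p = 0.00772).

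Mrpl55 rose from 9.36 and 6.21 RPKM to 26.8 and 34.4 (1.86 ± 0.24, adjusted p = 0.00141). Mrps26, a small-subunit protein without a bacterial homologue, rose from 22.8 and 10.4 RPKM to 36.6 and 70.7 (1.66 ± 0.40, adjusted p = 0.0132), and the large-subunit Mrpl34 from 17.8 and 14.6 to 39.3 and 62.4 (1.57 ± 0.54, adjusted p = 0.0477). In these 3, both Atf3KO libraries lay above all other iBMDM libraries. The pass of Mrpl34 was lost in 13 of 20 alternatives and that of Mrps26 in 2, whereas Mrps12 and Mrpl55 passed in all 20, as did Mrpl1, Mrpl35, Mrps31, Mrpl24 and Mrps18c. With the GC trend removed the differences were 1.48 for Mrps12, 0.80 for Mrps26 and 0.91 for Mrpl34 (adjusted p = 0.00255, 0.0304 and 0.114). The plot of levels in the iBMDM libraries shows these genes side by side.

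**Figure D2:**
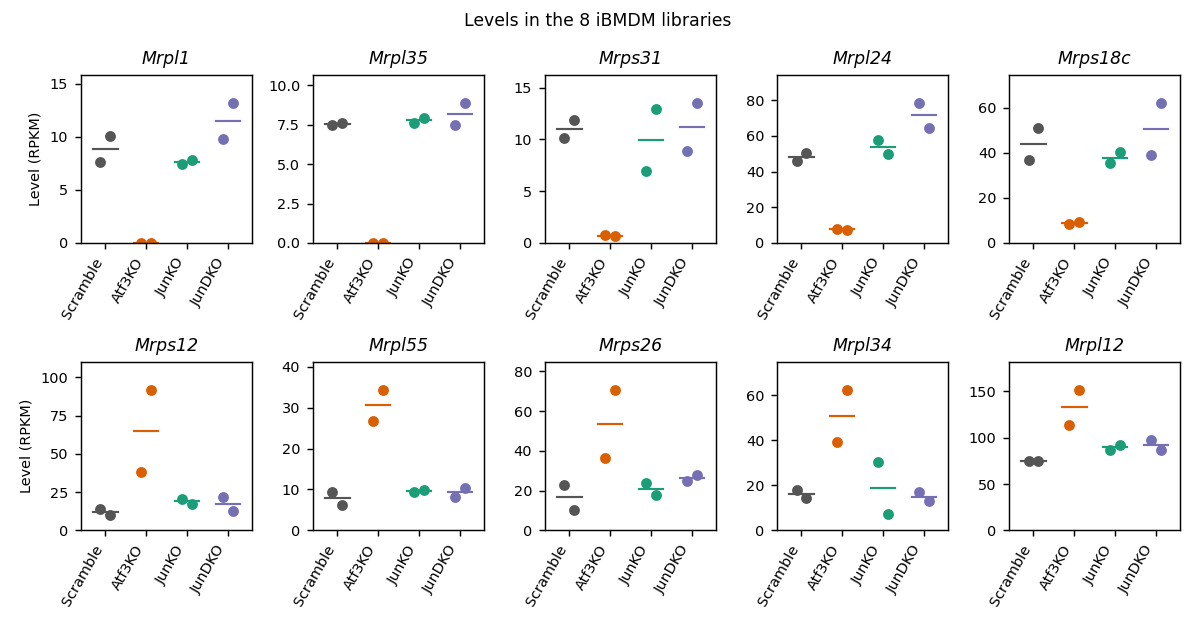
Level (RPKM, linear axis from 0) of 10 members in the 8 iBMDM libraries; points are libraries and lines the mean of 2. Mrpl1 and Mrpl35 sit at 0 in both Atf3KO libraries, and Mrps12 reaches 38.2 and 91.8 RPKM there against at most 21.8 elsewhere.

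Of the stalk proteins, Mrpl12 rose (0.81 ± 0.19, adjusted p = 0.0111), while Mrpl11, at the base of the stalk, fell from 11.4 and 10.6 RPKM to 4.43 and 7.88 (-0.78 ± 0.25, adjusted p = 0.0391). Mrpl10, which anchors Mrpl12, measured 25.4 and 21.6 RPKM in Scramble and 25.0 and 32.3 in Atf3KO (adjusted p = 0.427). The passes of Mrpl11 and Mrpl12 were lost in 10 and 3 of 20 alternatives. With the GC trend removed the difference of Mrpl12 was 0.12 (adjusted p = 0.587), and without the second Scramble library 0.80 (adjusted p = 0.0625). Without the first Atf3KO library that of Mrpl11 was -0.43 (adjusted p = 0.117).

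Against the 41.2% of all models that passed, 20 of 49 large-subunit members passed (40.8%, 11 higher and 9 lower) and 14 of 26 small-subunit members (53.8%, 10 higher and 4 lower). Of 43 members with a bacterial homologue 25 passed (58.1%, 15 higher and 10 lower), and of 29 mitochondria-specific members 7 (24.1%, 4 higher and 3 lower). Differences between these classes were not tested. Spearman's rho between the fitted difference and GC content over the 75 members was 0.49, close to the 0.50 over all models. The median GC content was 55.3% for the 21 members that rose and 47.4% for the 13 that fell, while their median lengths were 942 and 928 bases. With the GC trend of each library removed, 33 members passed (18 higher, 15 lower) and 11 in place of 21 met the 2-fold and 16 RPKM limit. Without the second Scramble library the members' median fitted difference was 0.148 against 0.039 for all models, with 44 members fitted higher and 31 lower. The second Atf3KO library is the one iBMDM library with another label date. Without it the medians were 0.212 and 0.043, with 47 members fitted higher and 28 lower.

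**Figure D3:**
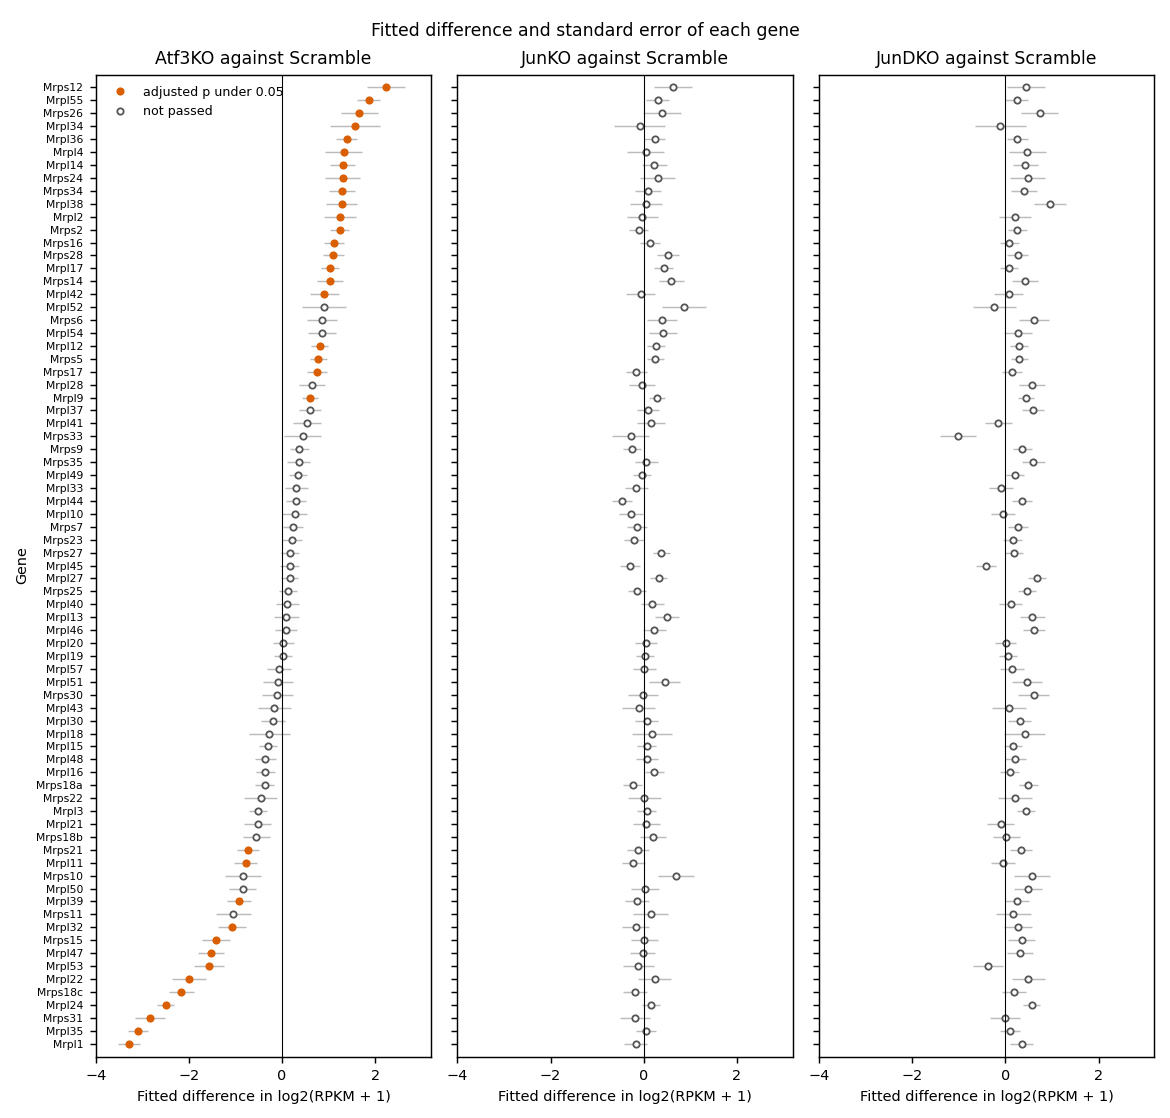
Fitted difference in log2(RPKM + 1) of each of the 75 tested members (rows, in the order of the first panel) against Scramble, with bars of 1 standard error; filled points passed an adjusted p of 0.05. The first panel spans -3.28 to 2.22 with 34 filled points, and the JunKO and JunDKO panels have none.

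Genes that serve the mitochondrial ribosome without bearing its symbols were split in the same comparison. Of 6 other ribosomal proteins of mitochondria 3 passed, or 50% against 41.2% of all models: Gadd45gip1 and Chchd1 rose (1.12 and 0.96) and Ict1 fell. Ict1, now called Mrpl58, is a release factor built into the large subunit, and measured 13.6 and 8.85 RPKM in Scramble and 0.313 and 1.14 in Atf3KO (-2.84 ± 0.36, adjusted p = 0.00123). The related release factors Mtrf1 and Mtrf1l were at 0 in both Atf3KO libraries. Mtrf1 measured 3.08 and 3.79 RPKM in Scramble and Mtrf1l 3.97 and 3.35. By the same limit they were at least 24.5-fold and 37.3-fold lower. Their fitted differences passed by limma-trend (adjusted p = 0.00344 and 0.000846). These 3 were set side by side after their values were seen. Of the other translation factors, the elongation factor Gfm1 (-1.74 ± 0.18, adjusted p = 0.00055) and the RNA-binding protein Slirp (-2.04 ± 0.31, adjusted p = 0.00243) fell, and Taco1, a translational activator of a cytochrome oxidase subunit, rose (1.28 ± 0.27, adjusted p = 0.00778).

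Among 13 translation factors 1 passed higher and 4 lower, among 21 assembly factors 4 and 3, among 17 aminoacyl-tRNA synthetases 6 and 4, and among 11 genes of mitochondrial DNA expression 3 and 1. These were 38.5%, 33.3%, 58.8% and 36.4% of each list, against 41.2% of all models. Their median differences were -0.50, 0.46, 0.80 and -0.06, against 0.052. Of 8 regulators 2 passed (25%), both higher. Nrf1 rose (0.79 ± 0.21, adjusted p = 0.0207), from 6.39 and 5.40 RPKM to 10.9 and 10.8, and so did Esrra, the estrogen-related receptor that works with PGC-1 proteins (1.83 ± 0.52, adjusted p = 0.0242), from 10.7 and 5.23 to 18.5 and 46.1. Gabpa measured 19.5 and 22.6 RPKM in Scramble and 21.3 and 20.4 in Atf3KO (adjusted p = 0.984), and Myc 49.0 and 22.7 against 42.9 and 67.4 (adjusted p = 0.223).

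The libraries labelled JunKO had no member past the threshold. In JunKO against Scramble 0 of 75 passed by limma-trend, 0 also by limma-voom on recovered reads, and 0 had an unadjusted p under 0.05 in either. Across all models 0.281% passed, and 842 and 517 of 10691 had an unadjusted p under 0.05 by the same tools. The members' median fitted difference was 0.057, and 47 were fitted higher and 28 lower. The largest fitted values were 0.87 ± 0.47 for Mrpl52, at 34.5 and 46.2 RPKM in Scramble and 75.3 and 72.0 in JunKO (adjusted p = 0.742), and 0.69 ± 0.39 for Mrps10 (adjusted p = 0.763). Downward they were -0.47 ± 0.21 for Mrpl44 (adjusted p = 0.67) and -0.30 ± 0.21 for Mrpl45 (adjusted p = 0.832). Both JunKO libraries lay above both Scramble libraries for 15 members (19.1% of all models) and below them for 7 (18.1%).

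JunDKO also gave 0 passes among 75 members, where 11.7% of all models passed. An unadjusted p under 0.05 was found for 10 members and 2939 of 10691 models, and limma-voom gave 0 passes, with 4 members and 2866 models unadjusted. Of the members 64 were fitted higher, as were 7370 of all models, and in 35 both JunDKO libraries lay above both Scramble libraries, which held for 45.3% of all models, and in 3 below them (16.4%). Their median difference of 0.264 was near that of all models, 0.235, and with equal library medians they were -0.025 and -0.028, with 34 members fitted higher and 41 lower. Mrpl38 had the largest fitted rise, with 15.9 and 10.4 RPKM in Scramble and 27.1 and 25.1 in JunDKO (0.96 ± 0.34, adjusted p = 0.113), followed by Mrps26 (0.74 ± 0.40, adjusted p = 0.27). Mrps33 had the largest fitted fall, with 2.97 and 3.91 RPKM in Scramble and 1.85 and 0.673 in JunDKO (-1.02 ± 0.40, adjusted p = 0.141), followed by Mrpl45 (-0.41 ± 0.21, adjusted p = 0.241).

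The knockouts were also set against each other, using the same libraries labelled Atf3KO as above. Against JunKO 32 members passed (17 higher, 15 lower) with 35.5% of all models passing (17% higher, 18.5% lower), and against JunDKO 29 (12 higher, 17 lower) with 40.7% (14.9% higher, 25.9% lower). The 2-fold and 16 RPKM limit left 15 in each, where it left 9.71% and 12.2% of all models. With equal library medians the splits were 14 higher and 18 lower against JunKO and 17 and 16 against JunDKO, and with quantile normalization 10 and 18, and 14 and 16. In both, Mrpl1, Mrpl35, Mrpl24 and Mrps31 had the largest falls, with fitted differences of -2.64 to -3.13 against JunKO and -2.83 to -3.63 against JunDKO, values that depend on the pseudocount for genes at 0. The largest rises against JunKO were those of Mrpl34 (1.66), Mrps12 (1.60), Mrpl55 (1.56) and Mrps2 (1.34), and against JunDKO those of Mrps12 (1.78), Mrpl34 (1.67), Mrpl55 (1.62) and Mrps33 (1.46). Against JunKO the pass of Mrpl34 was lost in 12 of 20 alternatives and that of Mrps12 in 4, and against JunDKO those of Mrpl34, Mrps12 and Mrps33 in 7, 2 and 2. Against JunKO, Mrpl34 stood at 1.09 and Mrps12 at 0.96 with the GC trend removed (adjusted p = 0.073 and 0.0173). Mrpl34 stood at 2.61 and 0.70 without the first and the second JunKO library (adjusted p = 0.00802 and 0.199). Without the second Atf3KO library Mrps12 stood at 0.98 against JunKO and 1.15 against JunDKO (adjusted p = 0.095 and 0.0535). As fitted here, Mrps18a passed against JunDKO (-0.87 ± 0.20, adjusted p = 0.0116), where it measured 58.7 and 54.6 RPKM, and not against JunKO or Scramble. Against Scramble it gained a pass in 2 of 20 alternatives. The difference between these contrasts was not tested. Between JunDKO and JunKO 0 of 75 passed by limma-trend or limma-voom, where 8.14% of all models passed by limma-trend. At an unadjusted p under 0.05 these tools found 6 and 5 members, and 2661 and 2624 of 10691 models. Its largest fitted values were 0.91 for Mrpl38 and 0.83 for Mrpl44 (adjusted p = 0.153 and 0.0518), and -1.10 for Mrpl52 and -0.73 for Mrps33 (adjusted p = 0.19 and 0.288).

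The TGEM libraries asked what 1 h of TLR4 stimulation did. No member passed, while 1.53% of all models did, and 11 members and 1553 of 10357 models had an unadjusted p under 0.05. Limma-voom gave 0 passes, with 8 members and 1485 models unadjusted. Of the 75 members 58 were fitted lower (45 with equal library medians), as were 6586 of all 10357 models, and in 23 all 3 KLA libraries lay below both vehicle libraries, with 0 the other way. Of all models 18% lay below and 5.74% above in this sense. The members' median difference was -0.284 and that of all models -0.145, or -0.142 and -0.015 with equal library medians. Pair by pair, 59 of 75 members were lower in C57Bl/6EiJ KLA than vehicle, and 50 and 49 in the Balb/cJ KLA libraries, where 67.7%, 50.9% and 61.3% of all models were lower. The median differences were -0.45, -0.22 and -0.22 against -0.18, -0.01 and -0.20 for all models. Both Balb/cJ pairs use the same vehicle library, and the second Balb/cJ KLA library has another label date than that library.

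Mrpl42 had the largest fitted fall after KLA (-1.13 ± 0.24, adjusted p = 0.0917), at 21.6 and 30.5 RPKM with vehicle and 9.34, 12.4 and 14.3 with KLA. Next came Mrpl43, at 32.2 and 33.2 RPKM with vehicle and 23.2, 12.0 and 11.7 with KLA (-1.01 ± 0.30, adjusted p = 0.206). Neither gene's groups overlapped, but neither passed. Mrpl12 measured 34.0 and 40.3 RPKM with vehicle and 19.9, 16.9 and 25.8 with KLA (adjusted p = 0.246). The largest fitted rises, of Mrps33 (0.57 ± 0.51, adjusted p = 0.621) and Mrpl10 (0.57 ± 0.38, adjusted p = 0.504), turned to -0.62 and -0.28 without the Balb/cJ vehicle library, in which Mrps33 was listed at 0. Myc, known to drive ribosome genes, rose in the same libraries from 8.29 and 4.29 RPKM to 62.5, 26.6 and 22.4 (2.48 ± 0.26, adjusted p = 0.00407).

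Between strains 2 of 75 members passed, where 2.31% of all models did. The 2-fold and 16 RPKM limit left 1, Mrps12, where it left 1.16% of all models. Mrpl47 measured 1.73 and 0.356 RPKM in the C57Bl/6EiJ libraries and 6.93, 4.03 and 2.99 in Balb/cJ (1.65 ± 0.27, adjusted p = 0.0319). Mrps12 went the other way, with 38.7 and 28.1 RPKM in C57Bl/6EiJ and 7.55, 10.9 and 12.98 in Balb/cJ (-1.62 ± 0.31, adjusted p = 0.0483). The strains did not overlap in either gene, but leaving out 1 library took away the passes in 4 of 5 cases (0 passes without the first Balb/cJ KLA, the Balb/cJ vehicle or either C57Bl/6EiJ library). The strain difference fell with GC content (rho -0.45 over 10286 models and -0.37 over the 75 members, descriptions from the same libraries), and with the GC trend removed 0 members passed. Balb/cJ reads were aligned to a genome of that strain, and the C57Bl/6EiJ libraries share a label date that the Balb/cJ libraries do not, so strain, alignment and date cannot be told apart. The interaction of KLA and strain gave 0 passes among members, where 0% of all models passed, with 5 members and 835 of 10357 models at an unadjusted p under 0.05. Limma-voom gave 0 passes, with 2 members and 396 models unadjusted. With 1 residual degree of freedom this fit is weak. The largest fitted interactions were 2.09 ± 0.51 for Mrps33, 1.64 ± 0.52 for Mrpl24, -1.97 ± 0.46 for Mrps10 and -1.41 ± 0.60 for Mrpl53 (adjusted p = 0.502, 0.589, 0.494 and 0.645).

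The largest shift of the set as a whole lay between the cell kinds. Fitted for C57Bl/6EiJ, TGEM vehicle cells had 27 of 75 members past the threshold against iBMDM Scramble, 25 lower and 2 higher. Across all models 46.3% passed, 30.2% lower and 16.1% higher. The 2-fold and 16 RPKM limit left 11 members and 20.7% of all models. Both TGEM vehicle libraries lay below both Scramble libraries for 47 members (44.3% of all models) and above them for 5 (22.9%). The members' median difference was -0.637 and that of all models -0.281, with 59 members fitted lower (52 with equal library medians), as were 6561 of 10929 models. With equal library medians it was -0.379 against -0.041, with 18 lower and 5 higher, and with the GC trend removed -0.293 against -0.007, with 15 passes (13 lower, 2 higher). The fitted difference rose with GC content (rho 0.58 over 75 members and 0.41 over 10848 models, descriptions from the same libraries). Over all libraries, 25 of 75 members were lower in every TGEM library than in every iBMDM library, as were 24% of all models, and 0 members were higher in every TGEM library, against 7.7%.

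Mrpl47, the homologue of a protein at the tunnel exit, had the largest fall: 14.4 and 16.9 RPKM in Scramble against 1.73 (C57Bl/6EiJ) and 6.93 (Balb/cJ) in TGEM vehicle cells (-2.66 ± 0.30, adjusted p = 5.74e-05). It was followed by Mrpl32 (23.1 and 35.2 against 7.36 and 15.1, -1.96 ± 0.38, adjusted p = 0.00183), Mrpl16 (25.0 and 19.9 against 8.39 and 10.7, -1.53 ± 0.28, adjusted p = 0.00138) and Mrpl19 (13.2 and 15.8 against 4.39 and 5.13, -1.52 ± 0.23, adjusted p = 0.000415). These 4 passed in all 21 alternatives. They are large-subunit proteins with bacterial homologues, but by class 17 of 49 large-subunit and 8 of 26 small-subunit members passed lower, as did 15 of 43 with a bacterial homologue and 10 of 29 mitochondria-specific ones. Of the exonic bases of Mrpl19, 22.8% overlap Gcfc2 on the opposite strand. Leaving out the C57Bl/6EiJ vehicle library left 14 passes, all lower. Mrpl12 fell too (-1.06 ± 0.26, adjusted p = 0.00631), as did Mrps18b (-1.04 ± 0.37, adjusted p = 0.0394), whose pass was lost in 11 of 21 alternatives and that of Mrpl12 in 1. With the GC trend removed Mrpl12 stood at -1.63, Mrpl19 at -0.97 and Mrpl32 at -1.14 (adjusted p = 0.000673, 0.0016 and 0.00934). Mrps18c (-0.80), Mrpl10 (-1.04), Mrpl11 (-0.56), Mrps15 (-0.72), Mrps7 (-0.32) and Mrps18a (-0.17) were fitted lower and did not pass.

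Mrps12 (1.32 ± 0.45, adjusted p = 0.0347) and Mrpl14 (0.95 ± 0.32, adjusted p = 0.0334) were higher. For Mrps12 the fitted value is that of C57Bl/6EiJ: the vehicle libraries held 38.7 and 7.55 RPKM and overlapped Scramble at 13.7 and 10.3. Mrpl14 held 34.9 and 21.0 RPKM in TGEM vehicle cells and 19.3 and 13.9 in Scramble. Their passes were lost in 7 and 5 of 21 alternatives. With the GC trend removed Mrps12 stood at 0.69 and Mrpl14 at 0.30 (adjusted p = 0.0907 and 0.361), and without the C57Bl/6EiJ vehicle library Mrps12 stood at 0.57 (adjusted p = 0.581). The plot of TGEM against iBMDM levels shows most members below the line of equality.

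**Figure D4:**
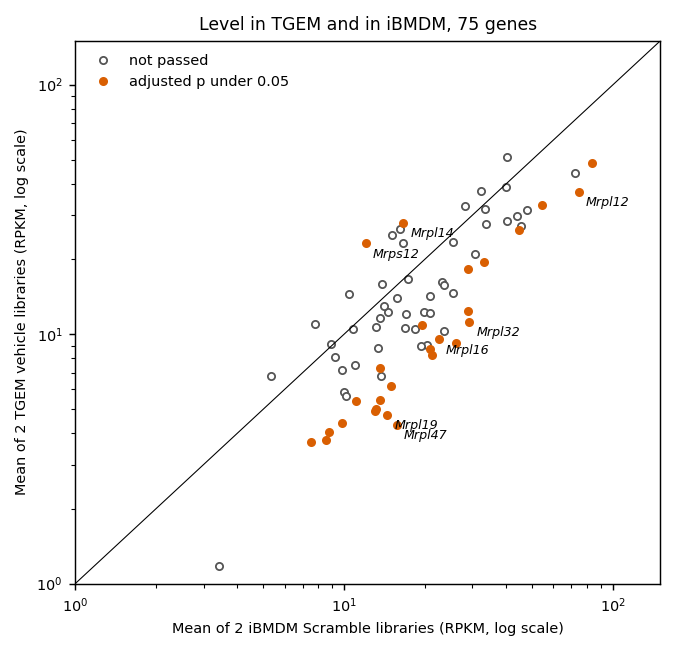
Mean level of each of 75 members in 2 TGEM vehicle libraries (y axis) and 2 iBMDM Scramble libraries (x axis), in RPKM on log scales with the line of equality; filled points passed an adjusted p of 0.05. Mrpl47 lies farthest below the line among those named and Mrps12 above it, and the passes come from the fit for C57Bl/6EiJ.

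The other lists were read against the 30.2% of all models that passed lower and the 16.1% that passed higher in TGEMs. Of 75 tested cytosolic ribosomal protein genes 48 passed lower and 0 higher (median -1.71), of 13 translation factors 7 and 0 (median -1.07), of 11 genes of mitochondrial DNA expression 8 and 0 (median -1.11), and of 21 assembly factors 5 lower and 1 higher (median -0.52). Of 16 aminoacyl-tRNA synthetases 4 passed lower and 0 higher (median -0.38), and of 6 other ribosomal proteins of mitochondria 2 and 0 (median -0.26). The last 3 lists passed in 28.6%, 25% and 33.3% of cases, below the 46.3% of all models. Of 8 regulators 3 passed (37.5%), all lower. Myc, part of the iBMDM transformation, measured 8.29 and 4.29 RPKM in TGEM vehicle cells and 49.0 and 22.7 in Scramble (-1.75 ± 0.43, adjusted p = 0.00723), and Pprc1, a coactivator of the PGC-1 family, 6.04 and 7.10 against 21.4 and 17.5 (-1.64 ± 0.29, adjusted p = 0.00106). Gabpa measured 7.99 and 11.7 RPKM against 19.5 and 22.6 (-1.30 ± 0.24, adjusted p = 0.00148), and Nrf1 6.34 and 4.90 against 6.39 and 5.40 (adjusted p = 0.845).

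Markers of other cells moved with this comparison. Summed over 4 fibroblast markers the TGEM libraries held 27.08 to 51.45 RPKM and the iBMDM libraries at most 0.22, with Col1a1 and Pdgfra at 0 in all of the latter. The 3 mesothelial markers summed to 3.38 to 5.71 RPKM in TGEMs and were at 0 in iBMDMs, and 3 B cell markers summed to 4.31 to 14.72 against at most 0.49. Sums over 3 mast cell markers were 1.78 to 13.18 against at most 0.26, over 3 eosinophil markers 0.67 to 4.06 against at most 1.29, and over 3 T cell markers 0.38 to 2.27 against 0. Those of 4 neutrophil markers (at most 0.67 against 0) and 3 epithelial markers (at most 1.77 against 4.41) were low in both. Their part in the result was not tested. TGEM and iBMDM libraries also differ in label date, mouse, culture and transformation, which cannot be told apart here, and in bulk RNA fewer cells and less RNA per cell cannot be told apart either. The heat map of relative levels sets all 75 members beside each other.

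**Figure D5:**
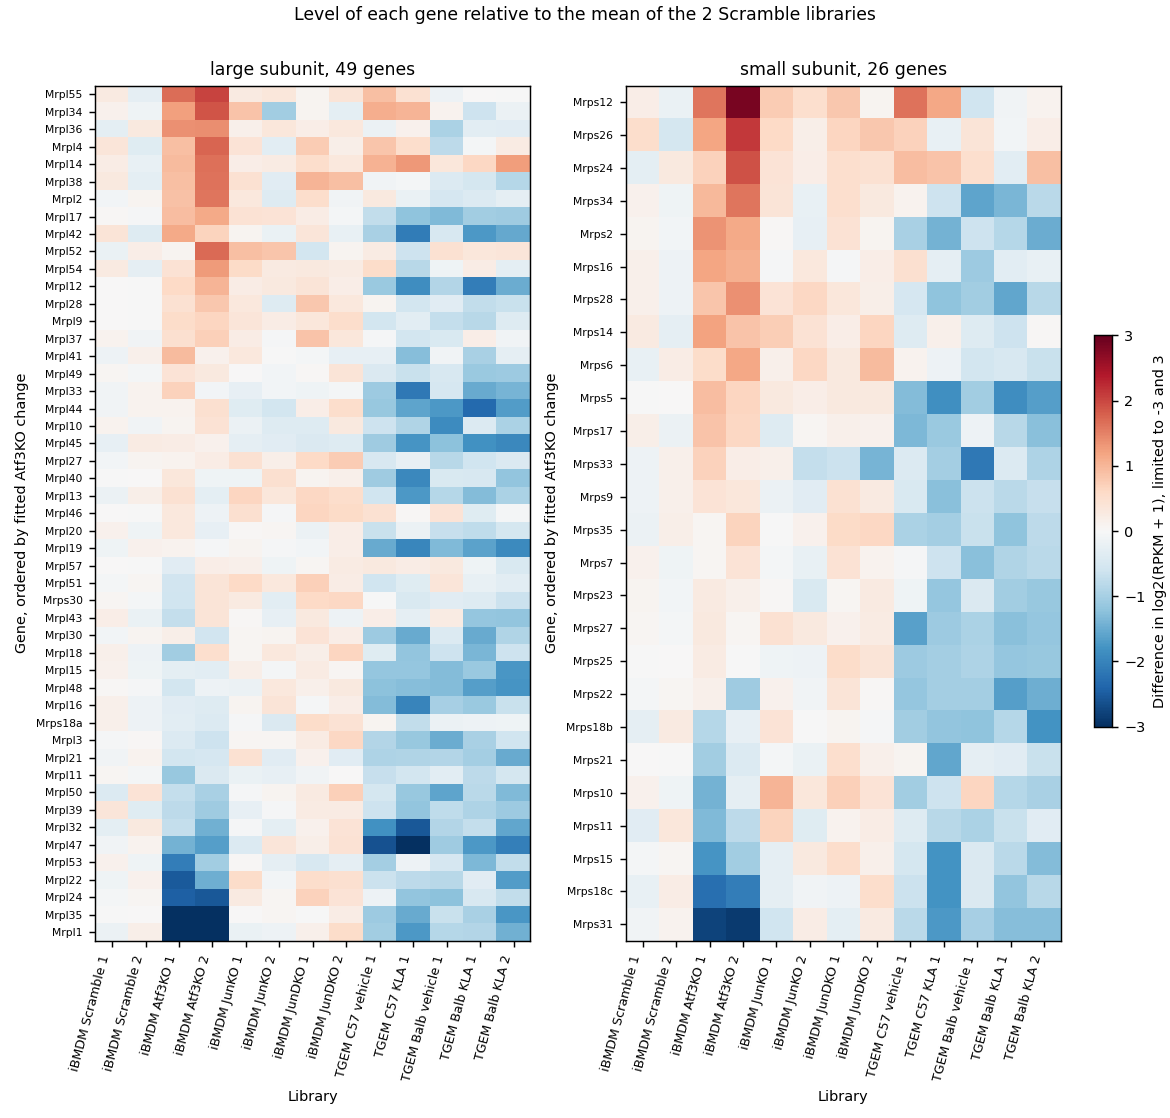
Level of each of 75 members (rows, by subunit and ordered by the fitted Atf3KO difference) in 13 libraries (columns), as the difference in log2(RPKM + 1) from the mean of the 2 Scramble libraries, with colours limited to -3 and 3. The 2 Atf3KO columns hold strong colours of both signs, and the 5 TGEM columns are mostly blue (lower), with Mrpl47 past the lower limit in the C57Bl/6EiJ KLA library, at 0.356 RPKM.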

How the data were processed

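PolyA RNA was measured in 13 libraries; 4 GRO-seq samples of the series were not analysed here. Per the file headers and the labels, the authors aligned reads with STAR (default settings) to mm10, or to a Balb/cJ genome made from it, and counted exon reads per gene with HOMER as RPKM, the deposited unit. Versions and a strand setting are not given in the sources used here.

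Whole reads and depths (1553296 to 18444441) were recovered from the RPKM steps, with 100% of values up to 50 reads whole within 0.05 or within rounding. Models averaging 1 RPKM or more were fitted as log2(RPKM + 1) with limma-trend (limma 3.58.1, R 4.3.3), with 4 iBMDM groups, with treatment and strain over 5 TGEM libraries, or with 13 libraries in 1 fit. P-values are two-sided, adjusted over all tested models by Benjamini-Hochberg. Differences on this scale understate changes of low genes. Positions are GRCm38, and sequences are from RefSeq (GRCm38.p6).

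Named genes were the 4 largest rises and falls among members that passed in a comparison (the 2 largest where none passed), the 5 highest and lowest mean levels, members under the limit, Mrps18a, Mrps18b, Mrps18c, Mrpl10, Mrpl11, Mrpl12, Mrpl58, Mrps7, Mrps12, Mrps15 and Mrps36. Members and gene lists were chosen with earlier results of these data known. Mrpl58 is listed in the table as Ict1. The fit code was also run on simulated reads that held no GC trend, so that run does not check the fits for data like these. Alternatives were other pseudocounts, filters and scalings, GC and length corrections, limma-voom and libraries left out.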

Additional observations from a re-analysis of the deposited data

How the results depend on the processing

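Over 21 alternatives the count of members past the threshold in Atf3KO against Scramble ran from 15 to 42 around 34, and in JunKO it was 0 in all 21. The 2-fold and 16 RPKM limits left 21 members in Atf3KO against Scramble, 15 against JunKO, 15 against JunDKO, 1 between strains and 11 between TGEM and iBMDM. Removing the GC trend gave 15 passes between TGEM and iBMDM, 0 between strains, 1 in JunDKO against Scramble and 2 in JunDKO against JunKO. With only the 2 groups in the fit, Atf3KO against JunKO gave 12, JunDKO against Scramble 1 and JunDKO against JunKO 1. A pseudocount of 5 gave 1 in JunDKO against Scramble and 0 between strains. The strain count was 0 with no filter on low values, 1 with equal library medians or quantile normalization, 3 (2 higher, 1 lower) with 13 libraries in 1 fit and 2, both lower and without Mrpl47 (adjusted p = 0.154), by limma-voom. The KLA count was 2, both lower, with 13 libraries in 1 fit. The interaction was 0 in 4 alternatives.

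Leaving out 1 library gave 15 to 33 passes in Atf3KO against Scramble (lowest without the second Scramble library), 0 to 1 in JunDKO against Scramble (1 without either Atf3KO library) and 0 to 2 in JunDKO against JunKO (2 without either Atf3KO library). Atf3KO against JunKO gave 14 to 31 (21 without the second Atf3KO library, 20 without either JunDKO library, 16 and 14 without the first and second JunKO library), and Atf3KO against JunDKO 12 to 32 (17 and 12 without the first and second JunDKO library). The strain count was 0 to 2, and TGEM against iBMDM 14 to 30 (lowest without the C57Bl/6EiJ vehicle library). Where a group was left with 1 library, that library was assumed to vary like the others. These counts are of members only, and in the knockout fits the number of all models that passed changed too.

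The labels number the replicates, but nothing says that a number marks a shared culture. Deviations of same-numbered iBMDM libraries correlated at 0.185 to 0.225 between Scramble, JunKO and JunDKO and at -0.215 to -0.12 with Atf3KO, so the numbers were not taken as a pairing. With the replicate number as a block, the counts were 33 in Atf3KO against Scramble, 24 against JunKO, 28 against JunDKO and 0 in JunKO against Scramble, JunDKO against Scramble and JunDKO against JunKO. A block with the Atf3KO numbers exchanged, chosen after seeing the data, gave 42, 39 and 41 for Atf3KO, 4 for JunDKO against Scramble and 3 for JunDKO against JunKO. The replicate block with the GC trend removed, also added then, gave 1 in JunDKO against Scramble and 3 in JunDKO against JunKO.

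The following values did not pass as reported. Mrps7 in Atf3KO against Scramble turned to -0.043 with the GC trend removed, with or without the replicate block. In KLA against vehicle, leaving out 1 library gave -0.622 to 1.47 for Mrps33 and -0.28 to 1.203 for Mrpl10, both lowest without the Balb/cJ vehicle and highest without the C57Bl/6EiJ KLA library. Mrps18a in TGEM against iBMDM turned to 0.116 with equal library medians, 0.021 with quantile normalization, 0.02 with the length trend removed and, with 1 library left out, values from -0.774 (C57Bl/6EiJ vehicle) to 0.076 (Balb/cJ vehicle or C57Bl/6EiJ KLA). The cause was not tested for any of these changes. Depth limits low members most: Mrps31 had 5 and 7 reads in Atf3KO.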
